A study of Saccharomyces cerevisiae with 2 samples.

Results

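General regulatory factors are sequence-specific DNA-binding proteins that keep the DNA around their sites free of nucleosomes, and budding yeast needs them at very many promoters. The genes that encode 6 such factors, ABF1, REB1, RAP1, CBF1, MCM1 and TBF1, were chosen by name as 6 of the 6002 nuclear protein-coding genes, and were followed from 1000 bp before the start codon to 300 bp after the stop codon. Abf1 and Reb1 bind at many promoters and also act in replication, in silencing or at ribosomal DNA. Rap1 binds telomere repeats, the silent mating-type loci and the promoters of ribosomal protein genes. Cbf1 is a helix-loop-helix protein of centromeres and of methionine synthesis genes, Mcm1 is a MADS-box protein of cell-cycle and mating-type genes, and Tbf1 binds vertebrate-type telomere repeats and small nucleolar RNA promoters. The question was how accessible the promoters of these factors' own genes were.

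Accessibility was measured by NOMe-Seq, in which a DNA methyltransferase methylates its target cytosines in nuclei where no nucleosome or other protein covers them, and bisulfite sequencing then reads the methylation. Nuclei came from S. cerevisiae strain S288C grown in YPD at 30 °C, treated with Zymolyase 100T, fixed with formaldehyde and permeabilized with NP40. The CCMT library was made with M.CviQIX, used as a mutant lacking its N terminus, which methylates the first C of CC. The GCMT library was made with M.CviPI, the enzyme in common use, whose target is the C of GC. Both reactions ran for 1 h. There was 1 library per enzyme, so no value has a replicate and no test between enzymes or between genes was possible. The intervals below are exact 95% binomial (Clopper-Pearson) intervals of pooled reads and cover counting error only, and the reads are not known to be independent molecules. The reads of a region are summed over its cytosines, so a sequenced read is counted again at each listed cytosine it spans. The intervals are therefore likely too narrow. Statements below on counting error, or on intervals that lie apart or above a mean, hold only for the intervals as computed.

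The CCMT library listed 900211 nuclear cytosines at a median coverage of 31 reads, and the GCMT library 839016 at a median of 13 reads. In the reference genome each listed cytosine stood in the dinucleotide that the labelled enzyme targets. The 6 genes with their flanks held 1446 CCMT and 1607 GCMT cytosines, at a mean coverage per gene of 30.8 to 36.9 reads for CCMT and 11.1 to 13.4 reads for GCMT, so GCMT levels are the less precise. A methylation level is the share of reads that were methylated at a cytosine, and the level of a region is the mean over its listed cytosines. The nuclear promoter mean, which serves as the yardstick throughout, is the mean level of all listed cytosines from −250 to −100 bp of the start codons of nuclear genes, and was 19.3% for CCMT and 20.6% for GCMT.

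One accessible stretch of each promoter is shown first, because they differ in where they lie, in base composition and in the factor motifs they hold. They are read 5′ to 3′ along the gene from the RefSeq R64 genome, which is the sacCer3 build of the files, and capitals mark matches to the consensus motifs of the 6 factors. The ABF1 stretch runs from −351 to −151 (chrXI:226219-226419, plus strand) and its capitals are a match to the Mcm1 motif and then one to the Abf1 motif. The REB1 stretch runs from −300 to −151 (chrII:336969-337118, minus strand) with a match to CACGTG, the Cbf1 motif, and one to TTACCCG, the Reb1 motif. The RAP1 stretch runs from −250 to −101 (chrXIV:241439-241588, plus strand) and holds no match. The CBF1 stretch runs from −250 to −151 (chrX:548509-548608, plus strand) with CACGTG. The TBF1 stretch runs from −250 to −151 (chrXVI:308372-308471, minus strand) with GCCCTAA, a form of the Tbf1 motif searched for after this sequence had been read. For MCM1, a far stretch from −700 to −401 (chrXIII:353171-353470, plus strand) stands beside its promoter region from −250 to −100 (chrXIII:353621-353771), since only the far one was highly methylated.
ABF1, −351 to −151: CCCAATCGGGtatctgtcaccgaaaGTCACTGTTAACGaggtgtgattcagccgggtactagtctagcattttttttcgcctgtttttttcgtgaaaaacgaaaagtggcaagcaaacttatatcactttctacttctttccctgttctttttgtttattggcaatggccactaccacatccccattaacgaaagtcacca
REB1, −300 to −151: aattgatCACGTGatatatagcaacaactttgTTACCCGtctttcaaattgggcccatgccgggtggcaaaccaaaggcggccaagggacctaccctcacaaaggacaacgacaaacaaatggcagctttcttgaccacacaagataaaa
RAP1, −250 to −101: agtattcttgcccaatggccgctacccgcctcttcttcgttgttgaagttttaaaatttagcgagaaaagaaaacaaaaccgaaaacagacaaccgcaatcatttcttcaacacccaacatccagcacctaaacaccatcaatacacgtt
CBF1, −250 to −151: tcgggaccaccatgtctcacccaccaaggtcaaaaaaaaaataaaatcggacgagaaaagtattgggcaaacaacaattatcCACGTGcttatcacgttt
TBF1, −250 to −151: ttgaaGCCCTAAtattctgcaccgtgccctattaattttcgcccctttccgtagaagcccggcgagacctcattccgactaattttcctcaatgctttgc
MCM1, −700 to −401: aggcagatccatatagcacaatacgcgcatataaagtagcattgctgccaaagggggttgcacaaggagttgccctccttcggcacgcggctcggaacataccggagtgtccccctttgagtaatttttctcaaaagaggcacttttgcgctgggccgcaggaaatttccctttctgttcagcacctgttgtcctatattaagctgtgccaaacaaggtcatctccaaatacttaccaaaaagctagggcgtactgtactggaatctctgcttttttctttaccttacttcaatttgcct
MCM1, −250 to −100: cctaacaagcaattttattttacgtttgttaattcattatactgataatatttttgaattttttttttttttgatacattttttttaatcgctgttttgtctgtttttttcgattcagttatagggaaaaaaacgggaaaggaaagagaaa
The MCM1 promoter region was 46.4% T with a longest run of 14 T, and 23.8% of its bases were G or C, against 41.0% to 48.0% in the other 6 stretches. It held 6 listed CCMT and 5 listed GCMT cytosines, so few positions there could report accessibility. The REB1 stretch held 22 and 16, and the shorter TBF1 stretch 16 and 16.

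The promoter region (−250 to −100) of each of the 6 genes had a level above the nuclear promoter mean in both libraries. At ABF1 the level was 35.1% for CCMT (12 cytosines, 373 reads, pooled interval 32.6% to 42.7%) and 34.3% for GCMT (10 cytosines, 131 reads, 27.0% to 43.9%). At REB1 it was 32.1% for CCMT (27 cytosines, 780 reads, 27.0% to 33.6%) and 26.3% for GCMT (18 cytosines, 229 reads, 21% to 32.9%). ABF1 lay high with both enzymes, at percentiles 96.3 (CCMT) and 90.0 (GCMT) among all genes, and REB1 lay at 92.6 and 72.1. CBF1 had 31.7% for CCMT (14 cytosines, 494 reads, 26.9% to 35.3%, percentile 92.0) and 34.2% for GCMT, a value from 4 cytosines and 74 reads (23.2% to 45.7%, percentile 90.0). TBF1 had 30.1% for CCMT (19 cytosines, 641 reads, 26.3% to 33.5%, percentile 89.1) and 33.3% for GCMT (20 cytosines, 356 reads, 31.5% to 41.8%, percentile 88.3). At these 4 genes the whole interval lay above the nuclear promoter mean in both libraries. At REB1 in GCMT it did so only just, from 21.03% against a mean of 20.61%, or of 21.01% with pooled reads.

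RAP1 and MCM1 had the lowest CCMT levels of the 6. RAP1 had 24.9% for CCMT (14 cytosines, 241 reads, 19.9% to 31.3%, percentile 75.6) and 33.9% for GCMT (14 cytosines, 199 reads, 23.4% to 36.5%, percentile 89.5), and its intervals also lay above the mean, in CCMT only just. Its GCMT difference from the mean was 13.3 points, but 5.73 with at least 10 reads per cytosine, and its CCMT difference was 5.63 points, but 1.33 with thinned reads and 1.58 with a region from −300 to −50. That wider region also brought the GCMT difference of CBF1 to 2.76 points, in place of 13.6, and that of MCM1 to 8.54, in place of 0.423. MCM1 had 21.8% for CCMT (6 cytosines, 78 reads, 11.2% to 29.7%, percentile 65.0) and 21% for GCMT (5 cytosines, 68 reads, 9.47% to 28.8%, percentile 56.4). The MCM1 intervals included the nuclear promoter mean in both libraries, so its promoter region could not be told from an average one at this depth. In each of the 6 genes the CCMT and GCMT intervals of the whole promoter region overlapped, by the least at TBF1, and an overlap does not show that the enzymes gave the same level.

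Over the 6 genes the mean was 29.3% ± 4.98 for CCMT and 30.5% ± 5.56 for GCMT (SD over 6 genes, which are not replicates), and the medians were 30.9% and 33.6%. The medians of all nuclear genes with at least 3 listed cytosines in the region were 18.0% for CCMT (5811 genes) and 19.3% for GCMT (5608 genes). All 6 genes passed that filter. The 6 of 6 above the mean compare with 44.6% of all genes for CCMT, 45% for GCMT and 32.8% for both libraries. The sixth gene was MCM1 in each case, and it moved below the mean in GCMT with at least 10 reads per cytosine, with pooled reads or with levels scaled by sequence context, and below it in CCMT with a region from −300 to −50, which left 5 of 6 in both. The plot of promoter-region levels shows 5 genes in the upper part of the distribution of all genes in both libraries and MCM1 near its middle.

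**Figure D1:**
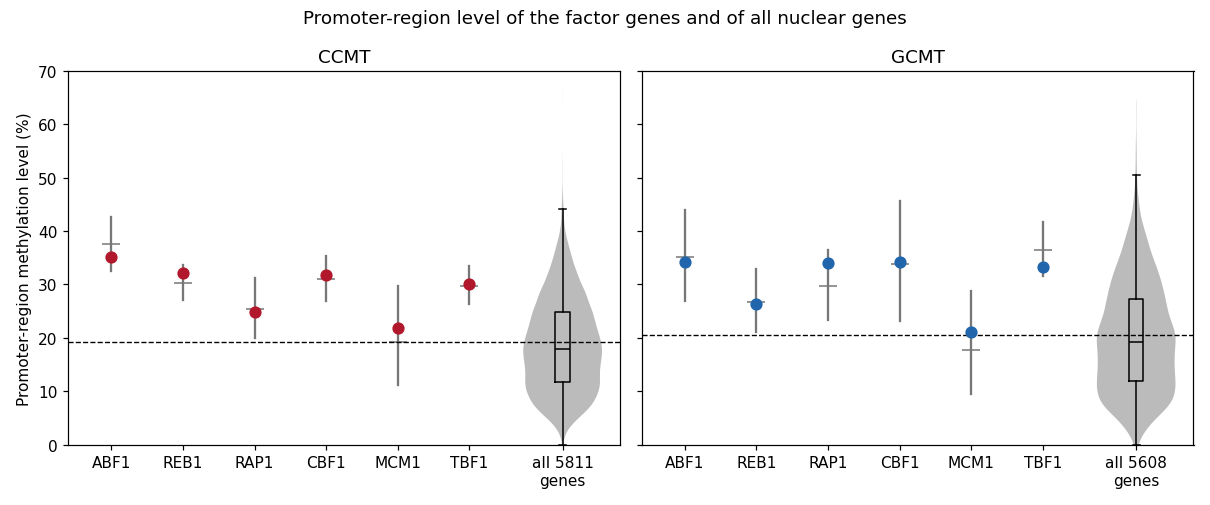
Promoter-region methylation level (%, −250 to −100 bp of the start codon) of the 6 genes in the CCMT library (left) and the GCMT library (right), beside the distribution over all genes with at least 3 listed cytosines (grey violin, with a box for the quartiles and whiskers to the farthest gene within 1.5 box lengths). Filled points are means over cytosines, grey bars are 95% binomial intervals of pooled reads with the pooled level as a tick, and the dashed line is the nuclear promoter mean of 19.3% (CCMT) or 20.6% (GCMT), which lies inside the interval of MCM1 in both panels.

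The 2 strands of a promoter region could be read separately. At REB1 the CCMT level was 36.9% on the coding strand (14 cytosines, 282 reads, 30.6% to 42.1%) and 26.9% on the opposite strand (13 cytosines, 498 reads, 23.1% to 31.0%), intervals that overlap only slightly. At ABF1 the CCMT level was 42.3% on the coding strand (8 cytosines, 295 reads, 36.7% to 48.2%) and 20.8% on the opposite strand (4 cytosines, 78 reads, 11.2% to 29.7%), which differ by more than counting error. The coding-strand cytosines there lay from −211 to −153 and the opposite-strand ones from −243 to −128. Most of the opposite-strand ones stood in GCC, a target of both enzymes. Strand could therefore not be told apart from position or sequence context. At CBF1 the strands gave 31.5% (8 cytosines) and 32.1% (6 cytosines) for CCMT. The CC cytosines of RAP1 and TBF1 lay almost wholly on the coding strand, with 13 of 14 at RAP1 and 17 of 19 at TBF1, so CCMT read mainly that strand there. For GCMT, whose target reads the same on both strands, the strand intervals overlapped in all 6 genes. This overlap of region levels does not show that the strands of a single GC were alike. At CBF1 the opposite strand had 53.8% at −184 (13 reads) and the coding strand 11.5% at −183 (26 reads). At −163 and −162 the order was reversed, with 7.69% (13 reads) on the opposite strand and 63.6% (22 reads) on the coding strand.

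To place these levels, the 1000 bp before each start codon were cut into 20 steps of 50 bp, and a step was called open where its level exceeded the nuclear promoter mean in both libraries with at least 2 listed cytosines in each. Of the 82 steps of the 6 genes with enough cytosines, 25 were open, or 30.5%, against 14.3% of the 84095 such steps of all nuclear genes. MCM1 gave 11 of the 25, and without it 14 of 69 steps were open, or 20.3%. The open steps by gene were 5 of 15 usable at ABF1, 3 of 13 at REB1, 3 of 14 at RAP1, 1 of 14 at CBF1, 11 of 13 at MCM1 and 2 of 13 at TBF1. In 5 of the genes they formed a peak of 50 to 150 bp that began between −300 and −200 and ended by −101, and ABF1 had a second one farther upstream. The mean over all nuclear genes was highest from −200 to −101, at 20.2% to 20.6% for CCMT and 21.5% to 22.2% for GCMT.

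**Figure D2:**
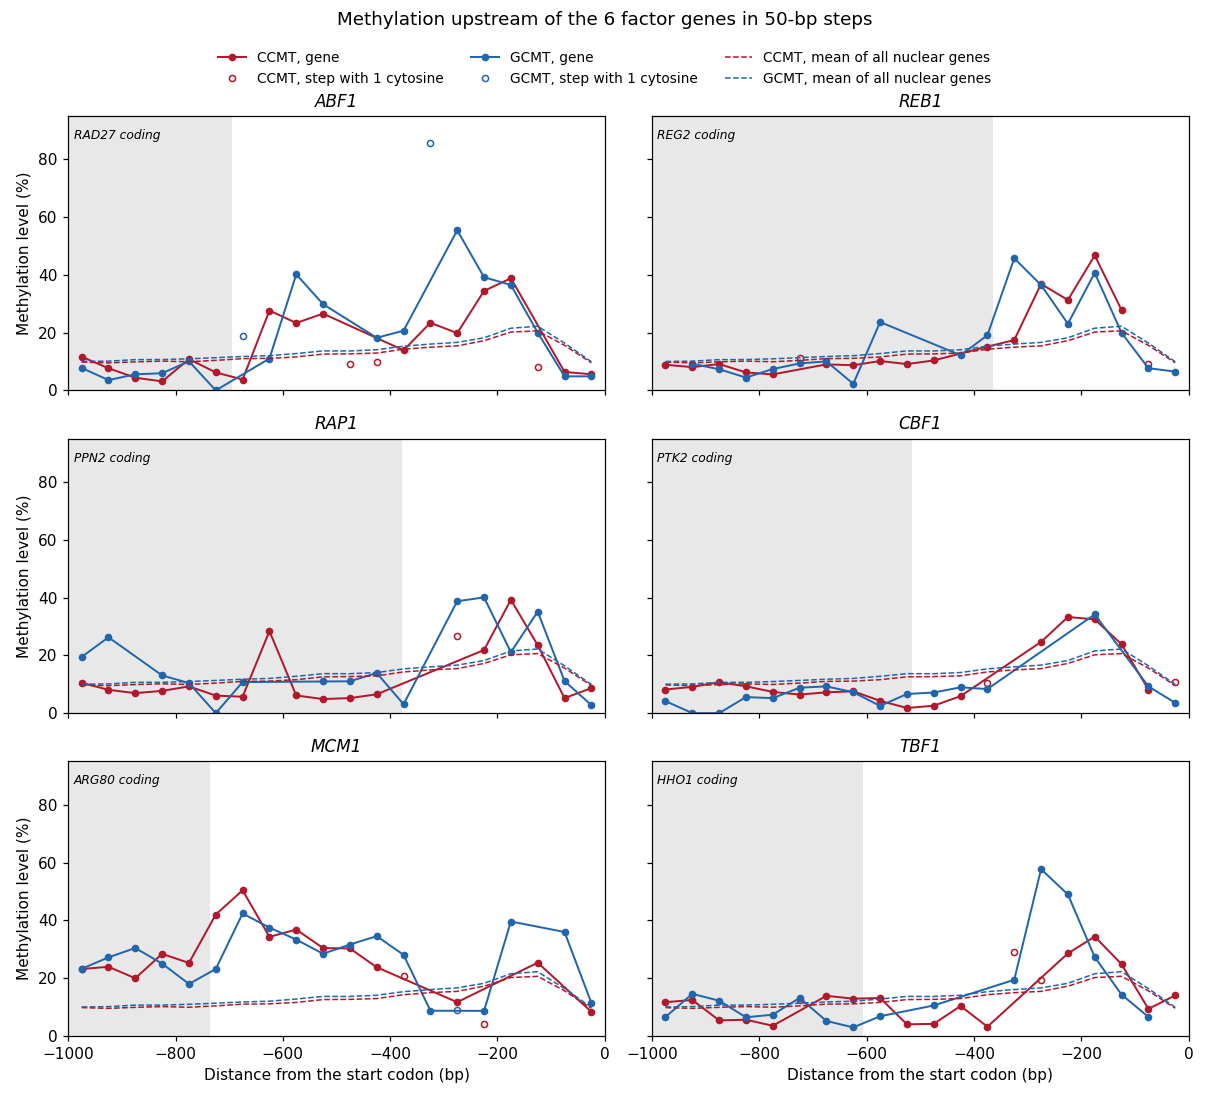
Methylation level (%) in 50-bp steps over the 1000 bp before the start codon of each gene, for CCMT (red) and GCMT (blue), with steps of 1 listed cytosine as open circles, the mean of all nuclear genes as dashed lines and the coding sequence of the upstream neighbour shaded. Steps without listed cytosines have no point. 5 genes show a peak within 300 bp of the start codon, in steps of at least 2 cytosines up to 46.7% (REB1, CCMT) and 57.7% (TBF1, GCMT), whereas MCM1 is above the nuclear promoter mean in both libraries in 11 of its steps from −1000 to −401.

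ABF1 (YKL112W, chrXI:226570-228765, plus strand, 1 exon) shares a divergent gap of 694 bp with RAD27, which encodes a flap endonuclease. Its near open run, from −300 to −151, had a level of 32.9% for CCMT (15 cytosines, 452 reads, 30.8% to 39.8%) and 44.6% for GCMT (13 cytosines, 157 reads, 36.0% to 52.1%). Within it the steps from −300, −250 and −200 had 19.8%, 34.4% and 38.8% for CCMT and 55.4%, 39.2% and 36.5% for GCMT. The levels thus rose towards the start codon for CCMT and fell for GCMT. The GCMT steps held 4 or 5 cytosines and 50 to 57 reads each. Their intervals overlapped (39.3% to 68.2%, 28.2% to 56.8% and 24.4% to 50.7%), so the GCMT fall was within counting error. The second run, from −600 to −501, had 25.5% for CCMT (6 cytosines, 163 reads, 19.2% to 33.2%) and 35.0% for GCMT (16 cytosines, 203 reads, 28.9% to 42.5%). It lies within the 250 bp upstream of RAD27 and largely coincides with the RAD27 promoter region. That region gave 23.1% for CCMT (7 cytosines, 196 reads) and 35.0% for GCMT (16 cytosines, 203 reads). Its GCMT cytosines are those of the run and its CCMT cytosines mostly so, and its levels are not separate measurements. Between the runs, from −500 to −301, the level was 16.6% for CCMT (14 cytosines, 381 reads, 12.9% to 20.7%) and 24.3% for GCMT (15 cytosines, 223 reads, 16.7% to 28.0%), and both intervals held the nuclear promoter mean. The GCMT value includes a single cytosine at 85.7% (7 reads) in the step from −350, where CCMT had 23.4% (5 cytosines, 130 reads). For each enzyme the level between the runs was lower than in either run.

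REB1 (YBR049C, chrII:334386-336818, minus strand, 1 exon) lies 364 bp from REG2, a phosphatase subunit gene on the same strand. Its open run from −300 to −151 had 33.9% for CCMT (22 cytosines, 607 reads, 28.3% to 35.8%) and 29.1% for GCMT (16 cytosines, 205 reads, 22.7% to 35.5%). The 3 steps from −300, −250 and −200 had 36.8%, 31.3% and 46.7% for CCMT and 36.5%, 23.1% and 40.7% for GCMT, so both enzymes were lower in the middle step than on either side of it. That step is the most densely sampled, with 17 CCMT and 10 GCMT cytosines, whereas the 2 beside it rest on 2 to 4 cytosines. The next step downstream, from −150, still had 27.8% for CCMT and 19.9% for GCMT, and the step upstream, from −350, had 17.4% and 45.7%. In the steps that overlap the REG2 coding sequence the levels were between 5.55% and 15.2% for CCMT and between 2.26% and 23.7% for GCMT, of which the step from −600 alone (23.7%, 4 cytosines, 45 reads) exceeded the nuclear promoter mean.

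RAP1 (YNL216W, chrXIV:241689-244172, plus strand, 1 exon) lies 377 bp from PPN2, a polyphosphatase gene on the same strand. Its open run from −250 to −101 had the same cytosines as its promoter region. The steps from −250, −200 and −150 had 21.8%, 39.2% and 23.5% for CCMT and 40.05%, 21.1% and 35.1% for GCMT, so the highest CCMT step was the lowest GCMT step. That middle step rests on 2 CCMT cytosines (28 reads) and 4 GCMT cytosines (62 reads). Single steps at this gene were few in reads. It lost all 3 open steps in a single random thinning of CCMT reads to the GCMT depth. It lost 2 of 3 when at least 3 cytosines were required. From −350 to −301 neither library listed a cytosine, and in the step from −300 a GCMT level of 38.7% (3 cytosines) stood beside 26.7% at 1 CCMT cytosine.

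CBF1 (YJR060W, chrX:548759-549814, plus strand, 1 exon) lies 515 bp from PTK2, a protein kinase gene on the same strand. CCMT traced a peak through 4 consecutive steps from −300, −250, −200 and −150 at 24.6%, 33.3%, 32.4% and 23.9%, all above the nuclear promoter mean. GCMT had cytosines in only 1 of these 4 steps, from −200, at 34.2% (4 cytosines, 74 reads), and the other 3 could not be called open for want of listed GC cytosines. Farther upstream, from −500 to −401, the CCMT steps were at 2.57% and 5.89% and the GCMT steps at 7.14% and 8.93%. The CBF1 gap was thus accessible near the gene and low next to PTK2.

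TBF1 (YPL128C, chrXVI:306533-308221, minus strand, 1 exon) lies 606 bp from HHO1, the linker histone gene, on the same strand. Its open run from −250 to −151 had 31.1% for CCMT (16 cytosines, 538 reads, 27.0% to 34.9%) and 38.1% for GCMT (16 cytosines, 302 reads, 35.5% to 46.8%), and the pooled intervals did not overlap, with GCMT the higher. The GCMT steps from −300, −250, −200 and −150 had 57.7%, 48.9%, 27.3% and 14.3%, and the CCMT steps 19.2%, 28.5%, 34.4% and 24.8%. The GCMT peak therefore lay farther from the start codon than the CCMT peak, although the step from −300 rests on 2 GCMT cytosines (34 reads) and 1 CCMT cytosine (26 reads). From −600 to −351 the steps with at least 2 cytosines were between 3.17% and 13.1% for CCMT and at 6.79% and 10.5% for GCMT.

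Just before the start codon the peaks had ended. Over the last 100 bp the CCMT levels were 6.04% at ABF1, 9.09% at REB1 (1 cytosine), 6.35% at RAP1, 8.84% at CBF1, 8.33% at MCM1 and 10.9% at TBF1, against a nuclear mean of 12.6%. The GCMT levels were 4.86% at ABF1, 6.80% at REB1, 4.86% at RAP1, 7.36% at CBF1 and 6.58% at TBF1, against a nuclear mean of 13.1%. MCM1 was the exception, with 20.6% for GCMT (16 cytosines, 157 reads, 13.3% to 26.1%), whose interval lay above the MCM1 CCMT interval of 1.40% to 12.5% (4 cytosines, 79 reads). The 4 CCMT cytosines all lay within 50 bp of the start codon, and the GCMT level there was 11.4%, so the excess came from GC cytosines from −100 to −51, at 36.0%, where no CC cytosine was listed.

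MCM1 (YMR043W, chrXIII:353871-354731, plus strand, 1 exon) had the widest accessible DNA of the 6 genes, and it lay away from the promoter region. Its longest open run, from −750 to −401, covered 350 bp at 34.9% for CCMT (44 cytosines, 1321 reads, 31.7% to 36.9%) and 34.1% for GCMT (56 cytosines, 833 reads, 31.7% to 38.3%). Step by step from −750 the CCMT levels were 42.0%, 50.4%, 34.3%, 36.8%, 30.4%, 30.3% and 23.7%, and the GCMT levels 23.1%, 42.4%, 37.5%, 33.3%, 28.4%, 31.6% and 34.5%. Both enzymes thus peaked from −700 to −651 and stayed above the nuclear promoter mean over 7 consecutive steps. A run of 7 or more open steps was found upstream of 2.28% of nuclear genes, and 11 or more open steps upstream of 61 of 6002, or 1.02%. Under 6 alternative settings the number of genes with as many open steps as MCM1 was between 51 and 127.

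The gap between MCM1 and its neighbour ARG80 is 734 bp, and its 3 parts differed. The far part, next to ARG80, had 34.5% for CCMT (42 cytosines, 1242 reads) and 34.5% for GCMT (54 cytosines, 801 reads). The middle, from −400 to −201, had 11.9% for CCMT (8 cytosines, 183 reads, 8.14% to 18.3%) and 18.4% for GCMT (12 cytosines, 160 reads, 13.6% to 26.4%). The near part, from −200 to −51, had 25.3% for CCMT (5 cytosines, 54 reads, 15% to 39.7%) and 36.9% for GCMT (8 cytosines, 81 reads, 24.3% to 46.0%). The fixed promoter region thus straddled the low middle and the higher near part, and its average level of 21.8% and 21% came from cytosines of both.

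A second open run, from −1000 to −801, had 24.6% for CCMT (28 cytosines, 1206 reads, 22.5% to 27.5%) and 26.9% for GCMT (30 cytosines, 425 reads, 21.3% to 29.8%), and it lay wholly inside the coding sequence of ARG80 (YMR042W, chrXIII:352603-353136, plus strand). In the steps of this run from −1000 and −950 the GCMT level came mainly from the coding strand. The opposite-strand cytosines there had 0% to 16.7% (15 to 22 reads each), all below the nuclear promoter mean. The coding-strand ones had 37.5% to 57.1% (7 to 14 reads each), except 0% at −943 (9 reads). In the steps from −900 and −850 the order of the strands was mixed. The cause of the strand difference was not tested. ARG80 encodes a MADS-box partner of Mcm1 in the control of arginine metabolism. Over its whole coding sequence the level was 22.7% for CCMT (61 cytosines, 2312 reads, 21.3% to 24.8%) and 19.6% for GCMT (68 cytosines, 903 reads, 16.4% to 21.6%). This was place 74 of 5888 genes from the top for CCMT and place 130 for GCMT, and 1.15% of genes were at least as high in both. The coding sequences of the upstream neighbours of the other 5 genes had 6.67% to 8.33% for CCMT and 6.59% to 10.2% for GCMT. The plot of MCM1 and ARG80 shows one broad high stretch that covers the end of ARG80 and the far part of the gap, and low levels in the MCM1 coding sequence.

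**Figure D3:**
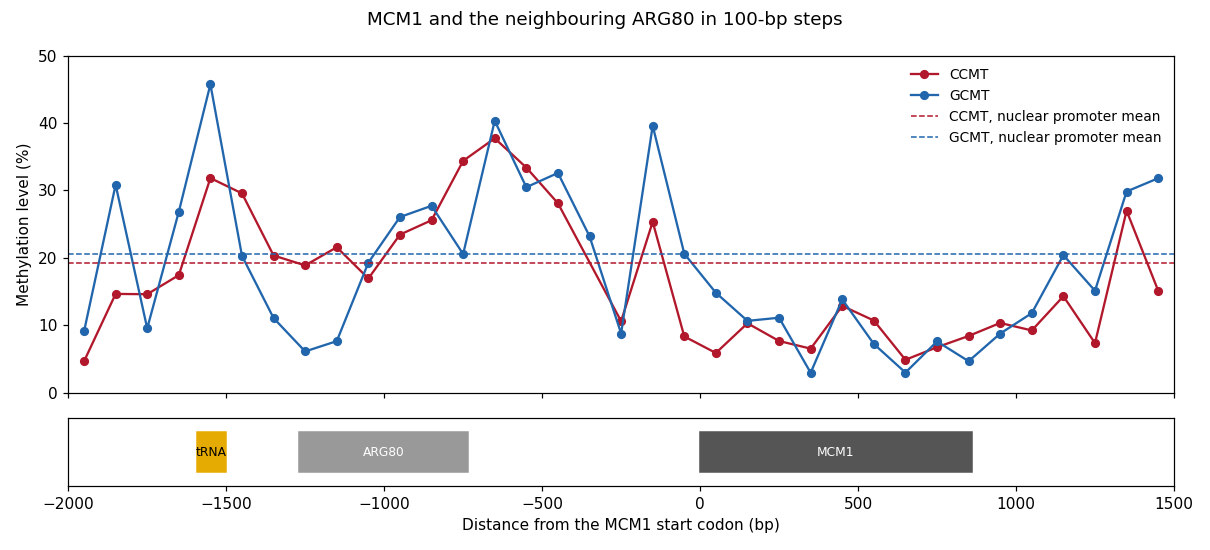
Methylation level (%) in 100-bp steps around MCM1 for CCMT (red) and GCMT (blue), with the nuclear promoter means as dashed lines and gene positions below (MCM1, ARG80 and a tRNA gene, all to scale in distance from the MCM1 start codon). Steps with fewer than 2 listed cytosines are not drawn. Both enzymes are above their means from −1000 to −401, except GCMT at 20.6% from −800 to −701, and at 14.8% or less in every step within the MCM1 coding sequence.

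The coding sequences of all 6 genes were closed. Their levels ran from 7.09% (RAP1) to 8.09% (MCM1) for CCMT and from 6.0% (ABF1) to 10.3% (CBF1) for GCMT, against nuclear coding means of 8.01% and 7.88%. None of the 161 coding steps with enough cytosines was open, against 0.676% of such steps over all nuclear genes, so a count of 0 is near what that share gives. CBF1 differed between the enzymes, with 7.34% for CCMT (92 cytosines, pooled interval 6.24% to 7.89%) and 10.3% for GCMT (123 cytosines, 8.49% to 11.9%). A large difference stood in the first 100 bp of CBF1, with 10.01% for CCMT (8 cytosines, 336 reads, 6.86% to 13.5%) and 24.8% for GCMT (13 cytosines, 142 reads, 15.3% to 29.5%), where the nuclear means were 9.29% and 9.27%. The first 100 bp of ABF1 differed in the same direction, with 4.65% for CCMT (15 cytosines, 442 reads, 2.61% to 6.63%) and 16.4% for GCMT (8 cytosines, 79 reads, 9.06% to 26.5%). MCM1 had 5.88% for CCMT (7 cytosines, 191 reads, 2.91% to 10.1%) and 14.8% for GCMT (8 cytosines, 86 reads, 8.30% to 24.5%), intervals that overlap. At REB1, RAP1 and TBF1 both enzymes gave 4.96% to 8.90% there.

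After the stop codon the levels were again higher than in the coding sequence, in both libraries for 6 of 6 genes, against 59.2% of all nuclear genes. For CCMT the 300 bp after the stop codon had 13.0% at ABF1, 11.3% at REB1, 17.2% at RAP1, 15.4% at CBF1, 12.3% at MCM1 and 11% at TBF1, against a nuclear mean of 13.0%. For GCMT they had 8.99% at ABF1, 16% at REB1, 20.6% at RAP1, 19.9% at CBF1, 12.2% at MCM1 and 8.27% at TBF1, against 13.5%. At TBF1 the GCMT level exceeded that of the coding sequence (7.84%) by less than counting error, since its interval was 3.59% to 15.5% (9 cytosines, 98 reads). The pooled intervals of the 2 regions also overlapped at TBF1 in CCMT and at ABF1 and MCM1 in GCMT. An overlap is not a test of a difference, so those excesses were neither established nor excluded at this depth. At REB1, RAP1 and CBF1 the intervals were apart in both libraries, and at ABF1 and MCM1 in CCMT alone. RAP1 and CBF1 were above the nuclear mean in both libraries, MCM1 and TBF1 below it in both, REB1 above it in GCMT alone, and ABF1 at it in CCMT and below it in GCMT. At RAP1 the CCMT side of this rests on few reads, and its difference from the mean was −4.91 points with at least 10 reads per cytosine, in place of 4.23. Of the 24 usable steps after the stop codons 3 were open, or 12.5%, near the 13.3% of all nuclear genes. They were from 101 bp after the stop codon of RAP1 (30.0% for CCMT from 10 reads, 40.2% for GCMT from 23 reads), from 151 bp after it (27.7% and 25.3%) and from 201 bp after that of CBF1 (24.1% and 38.4%).

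**Figure D4:**
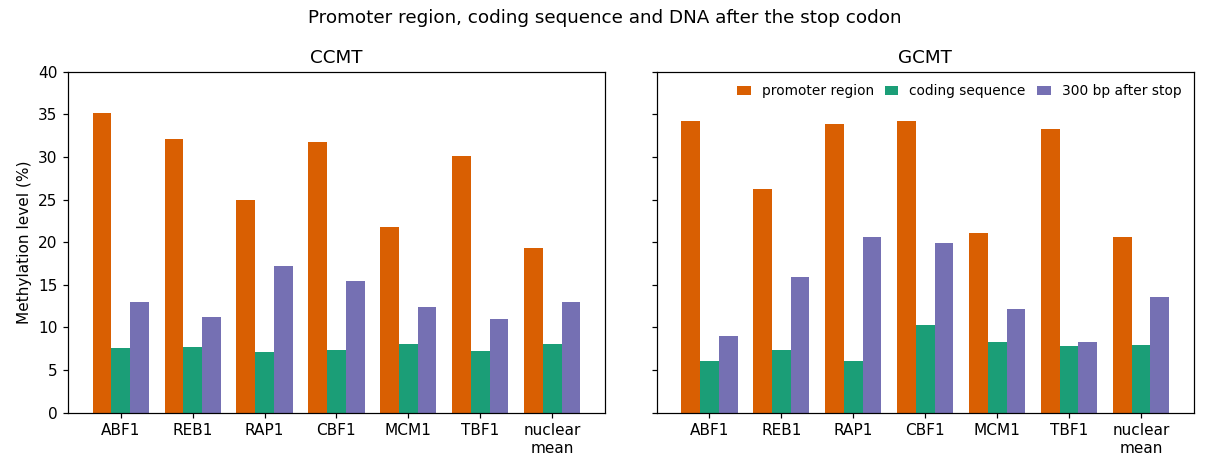
Methylation level (%) of the promoter region, the coding sequence and the 300 bp after the stop codon of each gene and the nuclear mean of the same regions, for CCMT (left) and GCMT (right). Bars are means over listed cytosines and carry no error bar, since there was 1 library per enzyme. In every gene the promoter region is highest and the coding sequence lowest, at 6.0% to 10.3%.

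Motif matches were searched for on both strands of the 1000 bp before each start codon, with consensus motifs for the 6 factors, and are described only as letters. ABF1, REB1 and CBF1 each held a match to the motif of their own product, and RAP1, MCM1 and TBF1 held none. Over all nuclear genes 24.4% held an Abf1 match in this window, 13.5% a match to TTACCCG (Reb1), 0.516% a Rap1 match, 10.8% a match to CACGTG (Cbf1), 51.7% an Mcm1 match and 7.16% a match to ACCCTAA (Tbf1). GCCCTAA, added for Tbf1 after the sequences had been read, was found at 4.80% of genes and, among the 6, at TBF1 alone. The Abf1, Rap1 and Mcm1 motifs are degenerate. A pair of overlapping Abf1 matches and 1 Mcm1 match before REB1 lay in the REG2 coding sequence, and the only match before RAP1, CACGTG at −622 to −617, lay in PPN2.

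At REB1 the TTACCCG match at −268 to −262 lay in the open run. Its 2 CC cytosines were methylated at 36.8% for CCMT (38 reads, 21.8% to 54.0%). The 50 bp on either side had 29.9% (16 cytosines, 484 reads, 23.4% to 31.5%). The intervals overlap, so neither a dip nor a rise at this match was established. Over a set of 385 nuclear matches to TTACCCG, CCMT had 31.6% inside and 28.6% around them, and GCMT 26.6% and 31.5%. CACGTG lay upstream of the REB1 match, at −293 to −288, and again at −42 to −37, and held no target cytosine. At CBF1, CACGTG at −168 to −163 lay in the open step, and the single GCMT cytosine in it was methylated in 1 of 13 reads, or 7.69% (0.195% to 36.0%), beside 43.0% in the 50 bp on either side (3 cytosines, 61 reads, 27.1% to 52.7%). The 2 intervals overlap, so a dip at this match was not established at this depth. The 3 cytosines around it also included the other strand of the same GC dinucleotide, at −162, which was methylated in 14 of 22 reads, or 63.6%. Over a set of 158 nuclear matches to CACGTG, GCMT had 18.1% inside and 25.9% around them.

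At ABF1 the Abf1 matches at −326 to −314 and at −64 to −52 held no target cytosine of either enzyme. Around the far match the 50 bp on either side had 20.7% for CCMT (14 cytosines, 369 reads) and 47.6% for GCMT (10 cytosines, 117 reads), and around the near one 5.77% and 4.86%. The Mcm1 match at −351 to −342 had 22.4% for CCMT (4 cytosines, 106 reads, 15.1% to 31.8%), beside 15.9% around it, and 53.3% for GCMT (8 of 15 reads at 1 cytosine, 26.6% to 78.7%), beside 24.8% around it. At TBF1, GCCCTAA at −245 to −239 had 26.5% for CCMT (2 cytosines, 68 reads, 16.5% to 38.6%) beside 28.3% around it, and 71.2% for GCMT (2 cytosines, 45 reads, 60.5% to 87.1%) beside 40.8% around it (11 cytosines, 226 reads, 35.1% to 48.3%). GCMT was thus higher in this match than around it by more than counting error, and CCMT was not. The 2 GCMT cytosines were the 2 strands of 1 GC dinucleotide. Over a set of 59 nuclear matches to GCCCTAA, GCMT had 32.4% inside and 26.0% around them, and CCMT 21.7% and 24.1%. The direction was the same there as at TBF1. This form was chosen after the TBF1 sequence had been read, so the shared direction is only described. The plot of single cytosines shows these positions.

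**Figure D5:**
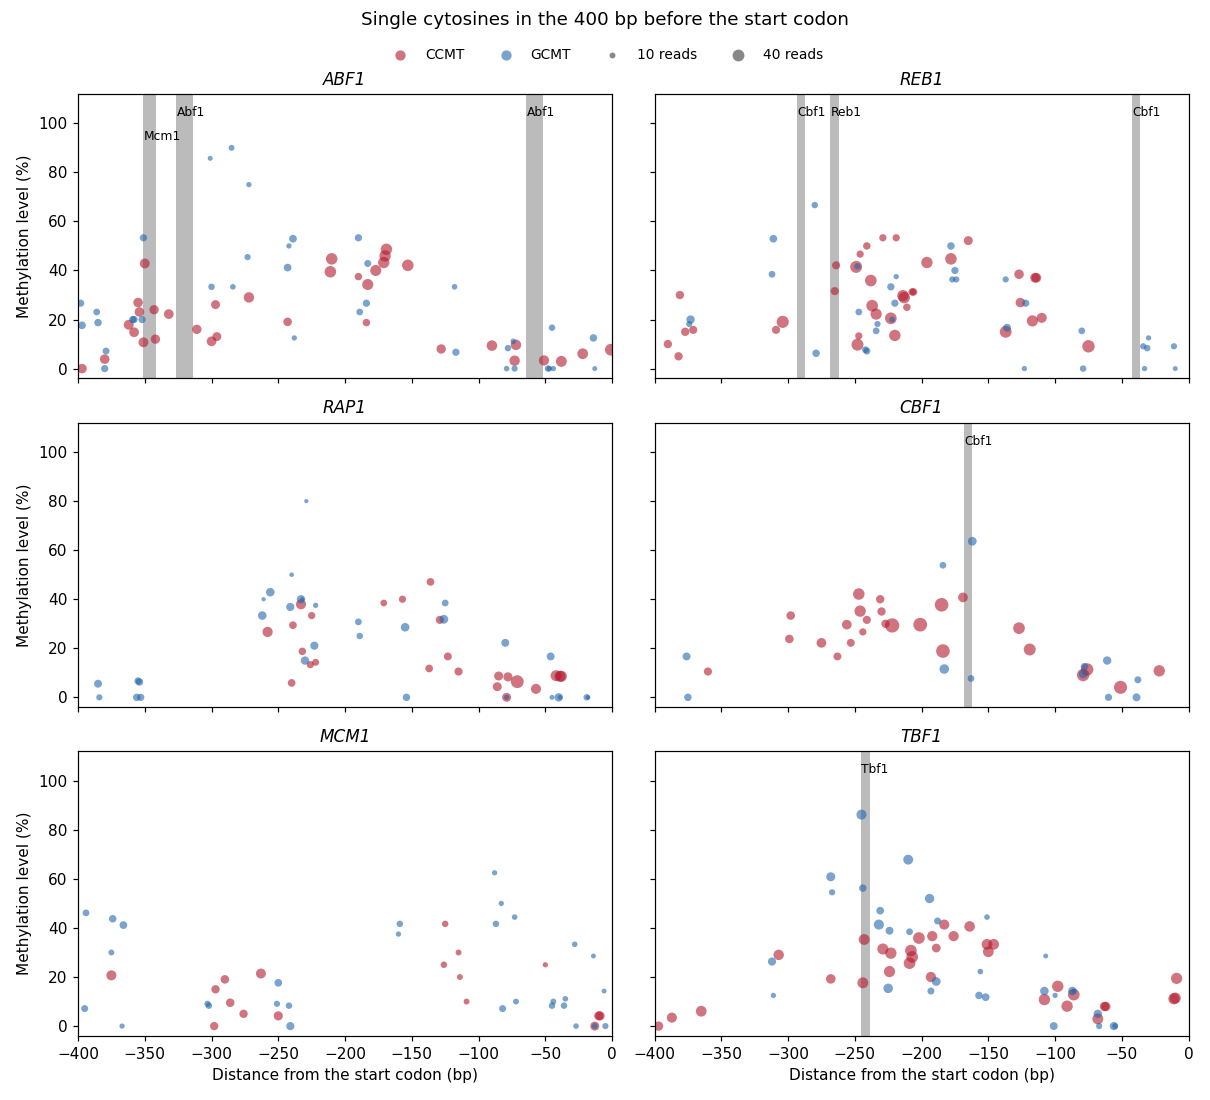
Methylation level (%) of every listed cytosine in the 400 bp before the start codon of each gene, for CCMT (red) and GCMT (blue), with the point area in proportion to its reads and motif matches as grey bands. High cytosines gather upstream of −100 at ABF1, REB1, RAP1, CBF1 and TBF1, whereas MCM1 has few cytosines there; no cytosine lies inside either Abf1 band.

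Partners of these factors and the chromatin remodellers that work beside them were looked at as a list of 37 genes. The number above the nuclear promoter mean was 15 for CCMT, 15 for GCMT and 12 for both, or 32.4%, where 32.8% of all genes were above it in both, and the medians were 17.4% and 17.2%. The share of the list was thus close to that of all genes. The highest by the smaller of its percentiles was ARG82, the gene of an inositol polyphosphate kinase that acts with Arg80 and Mcm1, at 39.6% for CCMT and 42.0% for GCMT, followed by NDD1 by the same measure, a cell-cycle activator that acts with Mcm1, at 33.6% and 41.0%. The lowest by the larger of the 2 percentiles were YOX1, a homeodomain repressor that acts with Mcm1, at 5.47% and 7.26%, and FHL1, a factor of ribosomal protein genes, at 8.35% and 7.91%. Of the 10 genes of Rap1 partners 5 were above the mean in both libraries, of the 4 of Cbf1 partners 1, of the 8 of Mcm1 partners 2 and of the 2 of Tbf1 partners 1. NSI1, the paralog of REB1, had 10.7% and 10.1%, and of 12 remodeller genes 3 were above in both.

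The upstream profiles were also set beside those of genes over 2000 bp away, by the smaller of the Pearson correlations of the 50-bp steps in both libraries. The nearest were RPL38 for ABF1 (r = 0.89 for CCMT and 0.91 for GCMT, 17 steps each), CHA1 for REB1 (0.94 and 0.85, 18 and 16 steps), ERG10 for RAP1 (0.83 and 0.80, 17 and 15 steps), SPT16 for CBF1 (0.91 and 0.91, 19 and 15 steps), PDR12 for MCM1 (0.71 and 0.69, 17 and 15 steps) and LEU9 for TBF1 (0.87 and 0.82, 16 and 15 steps). The steps of a gene come from the same library and share the rise of all promoters towards the start codon, and each gene was the best of 1929 to 4872, so these are descriptions. MCM1 had the least similar best match.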

How the data were processed

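NOMe-Seq data of 2 libraries, 1 per enzyme, were used. The authors mapped reads to sacCer3 with BMap and deposited, for each cytosine with at least 5 reads, the read count (coverage, not normalized) and the methylation level as a fraction. Versions, filters and duplicate handling are not given in the sources used here. The labels and the methods differ in formaldehyde and detergent concentrations, and the study lists the CCMT nuclei under another sample record. Start positions count from 0, and positions were matched to the R64 genome and annotation. Methylated reads were recovered as count times fraction.

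The 6 genes, lists and motifs were chosen with earlier results of these data known. Named genes were all 6, their upstream neighbours, the 2 highest and 2 lowest of the partner list and the most similar gene to each. The alternatives tried were pooled reads, at least 10 reads per cytosine, no GCC cytosines, thinning CCMT reads, a region from −300 to −50, scaling by 4-base context, steps shifted by 25 bp, at least 3 cytosines per step and flanks of 25 bp. The thinned values come from a single random draw, and their spread over other draws was not measured. Region means were tested on simulated data. The tools were scipy 1.17.1 and pandas 2.3.3 with numpy 2.4.6, in Python 3.11.15, and matplotlib 3.10.9 for plots. Other assays and organisms of the study were not analysed here.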

Additional observations from a re-analysis of the deposited data

How the results depend on the processing

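The number of genes above the nuclear promoter mean in both libraries was 5 or 6 under every alternative, the mean excess of the 6 genes was between 6.61 and 11.7 points for CCMT and between 7.35 and 12.1 for GCMT, and 19 to 26 of their upstream steps were open. The promoter difference of MCM1 in GCMT became −4.11 points with at least 10 reads per cytosine, −3.37 with pooled reads and −0.798 with scaling by context, and in CCMT −0.424 with a region from −300 to −50, where GCMT became 8.54. REB1 in GCMT became 2.07 points without GCC cytosines and CBF1 in GCMT 7.25, and ABF1 in GCMT 26.6 with scaling by context. With thinned reads CCMT became 10.2 at ABF1 and 6.72 at TBF1, and with the wider region 8.54 at ABF1 and 7.09 at TBF1. After the stop codon, RAP1 in CCMT became −4.91 with at least 10 reads and −2.35 with thinned reads, and ABF1 in CCMT 0.909 with pooled reads and 0.501 with thinned reads. In coding sequence, MCM1 in CCMT became −0.149 with at least 10 reads, TBF1 in GCMT 0.291 without GCC cytosines and REB1 in CCMT 0.136 with thinned reads. CCMT inside minus around GCCCTAA of TBF1 became 0.818 points with a flank of 25 bp. Open steps became 3 at ABF1 without GCC cytosines, 0 at RAP1 with thinned reads, 1 at RAP1 with at least 3 cytosines per step and 2 at CBF1 with shifted steps. The cause was not tested.

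No paired analysis was possible because each enzyme has 1 library. Few cytosines per step, lower GCMT depth and the minimum of 5 reads limit single steps, and copies of a molecule could not be told from separate reads.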

Other observations

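Upstream of ARG80 the levels of the 2 enzymes parted. A tRNA gene (YNCM0019W, chrXIII:352280-352370) had 31.8% for CCMT (9 cytosines, 270 reads, 26.3% to 37.8%) and 45.7% for GCMT (10 cytosines, 115 reads, 39.3% to 58.2%). Between it and the start codon of ARG80 the enzymes differed beyond counting error, with 24.7% for CCMT (17 cytosines, 429 reads, 21.1% to 29.6%) and 13.5% for GCMT (22 cytosines, 233 reads, 8.86% to 17.9%). Within the ARG80 coding sequence the 100-bp step from −1200 of the MCM1 start codon had 21.6% for CCMT and 7.64% for GCMT, whereas the step from −1100 had 16.9% and 19.3%. These values were looked for after the MCM1 steps had been seen, and no explanation of them was tested.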
